A study of Mus musculus with 6 samples.

Results

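The neurofilament and axonal cytoskeleton genes described here are 10 mouse genes, namely Nefl, Nefm, Nefh, Ina and Prph for intermediate filament proteins, Gap43 for a growth cone protein, and Stmn2, Stmn3, Mapt and Map1b for proteins that bind tubulin or microtubules. They were chosen by name, and a probe set was used if the platform annotation assigned it to 1 of these genes and to no other. All 10 genes had such a probe set, 23 in total, out of 34945 probe sets with a single gene and 18193 genes in the whole table. Where a gene had several probe sets, the probe set that was brightest on average, by mean log2 intensity, leads and stands for the gene, and the others were tested in a fit of their own.

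The arrays carry RNA from retinal ganglion cells (RGCs), whose axons form the optic nerve, sorted by flow cytometry from papain-dissociated retinas of C57BL/6 mice at postnatal day 6. The Hb9 group and the Drd4 group are cells positive for both GFP and Thy1 from a pair of mouse lines, each known to mark a type of direction-selective RGC. The Thy1 group, the reference for both, is cells positive for Thy1, a surface protein of RGCs in general. Each group has 2 arrays from different litters. The labels state neither the transgenes nor how many animals were pooled for an array, and the Thy1 group may include direction-selective cells. All groups share the strain, the age, the dissociation and an amplification of the RNA in 2 rounds. The values are probe set intensities, analysed on the log2 scale, and a difference of 1 on that scale is a 2-fold difference. Brightness of different probe sets is not comparable, so levels are compared between groups for the same probe set only.

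Neurofilaments are the main intermediate filaments of mature axons. They are mixed polymers of the light (Nefl), medium (Nefm) and heavy (Nefh) subunits, joined in many neurons by alpha-internexin (Ina) and, in some, by peripherin (Prph), and they are known for setting the calibre of axons. Nefl, Nefm and Ina are expressed early in neuronal differentiation, while Nefh is known to increase later, as axons mature. Microtubules run beside these filaments. Tau (Mapt) and Map1b bind and stabilise them, and the stathmins Stmn2 and Stmn3 bind tubulin and favour microtubule turnover in growing axons. Gap43 is a membrane-attached protein of growth cones.

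Nefm and Map1b were the members with a difference between groups that passed the threshold given below. Nefm was higher in both GFP-marked groups than in the Thy1 group, by 0.57 ± 0.12 on the log2 scale in Hb9 (1.49-fold) and by 0.67 ± 0.12 in Drd4 (1.60-fold). Map1b was lower in Hb9 cells than in the Thy1 group by 1.31 ± 0.15 on the log2 scale, so that it stood at 40.4% of the Thy1 level, and it was lower in Hb9 than in Drd4 cells as well, at 44.1% of the Drd4 level. A difference is given with its standard error from limma and a group mean with its SD over 2 arrays, and a gene passed if its p-value from limma, adjusted by Benjamini-Hochberg over all 18193 genes, was under 0.05. The other 8 genes passed in no comparison, which does not show that they were equal between groups.

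Counted by comparison, 1 member was higher and 1 lower in Hb9 than in Thy1, beside 6.71% of all genes that passed in either direction (3.52% higher and 3.19% lower). In Drd4 against Thy1, 1 was higher and 0 lower, beside 5.47% of all genes (1.51% higher and 3.96% lower). In Hb9 against Drd4, 0 were higher and 1 lower, beside 6.12% (4.06% higher and 2.06% lower). At an unadjusted p under 0.05 the members numbered 5, 1 and 5 in the same order. The share of all genes at that unadjusted threshold was not counted. These numbers, and the unadjusted counts of other lists below, were therefore not read against a background. The median log2 difference of the 10 genes was -0.03 in Hb9 against Thy1, 0.12 in Drd4 against Thy1 and -0.07 in Hb9 against Drd4, where the medians of all genes were 0.04, 0.02 and 0.04. The arrays of the compared groups did not overlap for 6 members in Hb9 against Thy1, 6 in Drd4 against Thy1 and 7 in Hb9 against Drd4, and for 54.2%, 41.1% and 49.7% of all genes. With 10 genes, 1 gene is 10% of the list, so shares of this size were not read as differing from the background. With 2 arrays on each side, the smallest p of an exact permutation test is 0.333, and none was run. Both comparisons with Thy1 use the same Thy1 arrays.

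**Figure D1:**
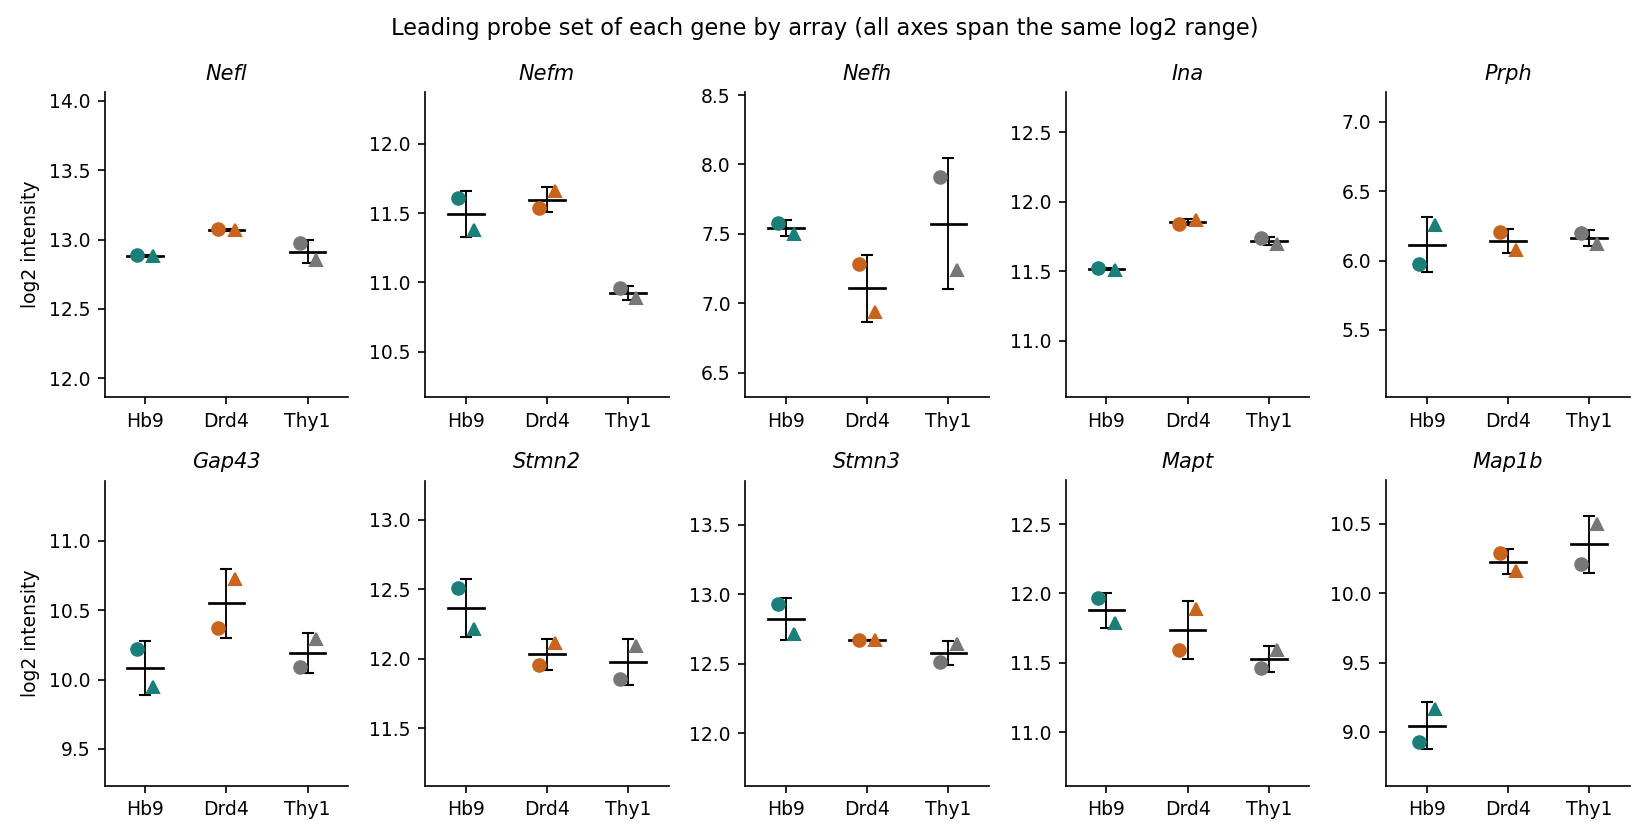
Log2 intensity (y axis) of the leading probe set of each of the 10 genes in the Hb9, Drd4 and Thy1 groups (x axis), with circles for replicate 1, triangles for replicate 2, and bars for the mean and SD of 2 arrays. Map1b lies between 8.93 and 9.16 in Hb9 and between 10.16 and 10.50 in the other groups, and Nefm lies between 11.38 and 11.66 in both GFP-marked groups and at 10.96 and 10.89 in Thy1.

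Among the neurofilament triplet, Nefm was the subunit that passed. Nefm read 11.61 and 11.38 on the Hb9 arrays and 11.53 and 11.66 on the Drd4 arrays, against 10.96 and 10.89 on the Thy1 arrays. All 4 arrays of the GFP-marked groups thus lay above both Thy1 arrays, while Hb9 and Drd4 overlapped. The adjusted p was 0.0206 for Hb9 against Thy1 and 0.00695 for Drd4 against Thy1, and Hb9 minus Drd4 was -0.10 ± 0.12 (95% interval -0.37 to 0.16, adjusted p = 0.697). The gene has 1 probe set, so no second one tests its pattern. The call in Hb9 was lost without Hb9 replicate 1 (adjusted p = 0.215), without Thy1 replicate 1 (0.0700) and without Thy1 replicate 2 (0.0547), in a range of 0.0149 to 0.215 over 16 alternatives. The call in Drd4 held in all 16 in the fit of genes (adjusted p from 0.00529 to 0.0453). In the fit of probe sets, Nefm did not pass in Drd4 against Thy1 without Drd4 replicate 2.

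Nefl, the subunit on which the others assemble, read 12.89 and 12.88 in Hb9 and 13.07 and 13.07 in Drd4, against 12.97 and 12.85 in Thy1. Both Drd4 arrays lay above the other 4, and Hb9 and Thy1 overlapped. The difference was -0.03 ± 0.08 in Hb9 against Thy1 (95% interval -0.21 to 0.15) and 0.16 ± 0.08 in Drd4 against Thy1 (-0.02 to 0.33), and neither passed (adjusted p = 0.873 and 0.423). At 7400 to 8622 its intensities were in the upper part of the range of the arrays, whose highest value was 13187. Whether the signal was compressed there was not tested. The second probe set gave -0.11 ± 0.09 and 0.05 ± 0.09. Nefl and Nefm are neighbouring genes on the mouse genome.

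Nefh, the heavy subunit, read 7.58 and 7.50 in Hb9 and 7.28 and 6.94 in Drd4, against 7.91 and 7.24 in Thy1. Its replicates spread more than those of the other members in Thy1, with an SD of 0.47 on the log2 scale, and its intervals were the widest of the 10 genes. Drd4 minus Thy1 ran from -0.80 without Thy1 replicate 2 to -0.13 without Thy1 replicate 1. Drd4 minus Thy1 was -0.47 ± 0.22 (95% interval -0.96 to 0.03, adjusted p = 0.387) and Hb9 minus Thy1 was -0.03 ± 0.22 (-0.53 to 0.46).

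Ina, which encodes alpha-internexin, read 11.52 and 11.51 in Hb9 and 11.84 and 11.87 in Drd4, against 11.74 and 11.70 in Thy1. On this leading probe set of Ina the groups did not overlap, in the order Hb9, Thy1, Drd4 from low to high. The largest of its differences was between the GFP-marked groups, with Hb9 minus Drd4 at -0.34 ± 0.10 (95% interval -0.55 to -0.13), and it did not pass (adjusted p = 0.0690). With dim genes left out, which reduces the number of tests, the same difference had an adjusted p of 0.0499, in a range of 0.0499 to 0.340 over the alternatives. The other Ina probe sets gave -0.20 ± 0.11 and -0.36 ± 0.14 in Hb9 against Drd4 and did not pass. On the former Hb9 overlapped Thy1, and on the latter Drd4 overlapped Thy1.

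Prph, which encodes peripherin, a filament protein best known from peripheral and large projection neurons, was dim. Its leading probe set ranged from 5.98 to 6.25 over the 6 arrays, and the groups overlapped in every comparison. Differences ran from -0.05 to -0.02 with standard errors of 0.15. That probe set is 1 of 3 for which the annotation names no accession. The remaining probe set, matched to the RefSeq transcript of the gene, read 4.96 and 4.54 in Hb9 and 4.77 and 4.70 in Drd4, against 5.31 and 5.24 in Thy1. It lay at or below the highest bacterial control in Hb9 and Drd4 and above it on both Thy1 arrays, so no fold is given. In the fit of probe sets it did not pass (adjusted p = 0.0759 in Hb9 and 0.105 in Drd4).

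**Figure D2:**
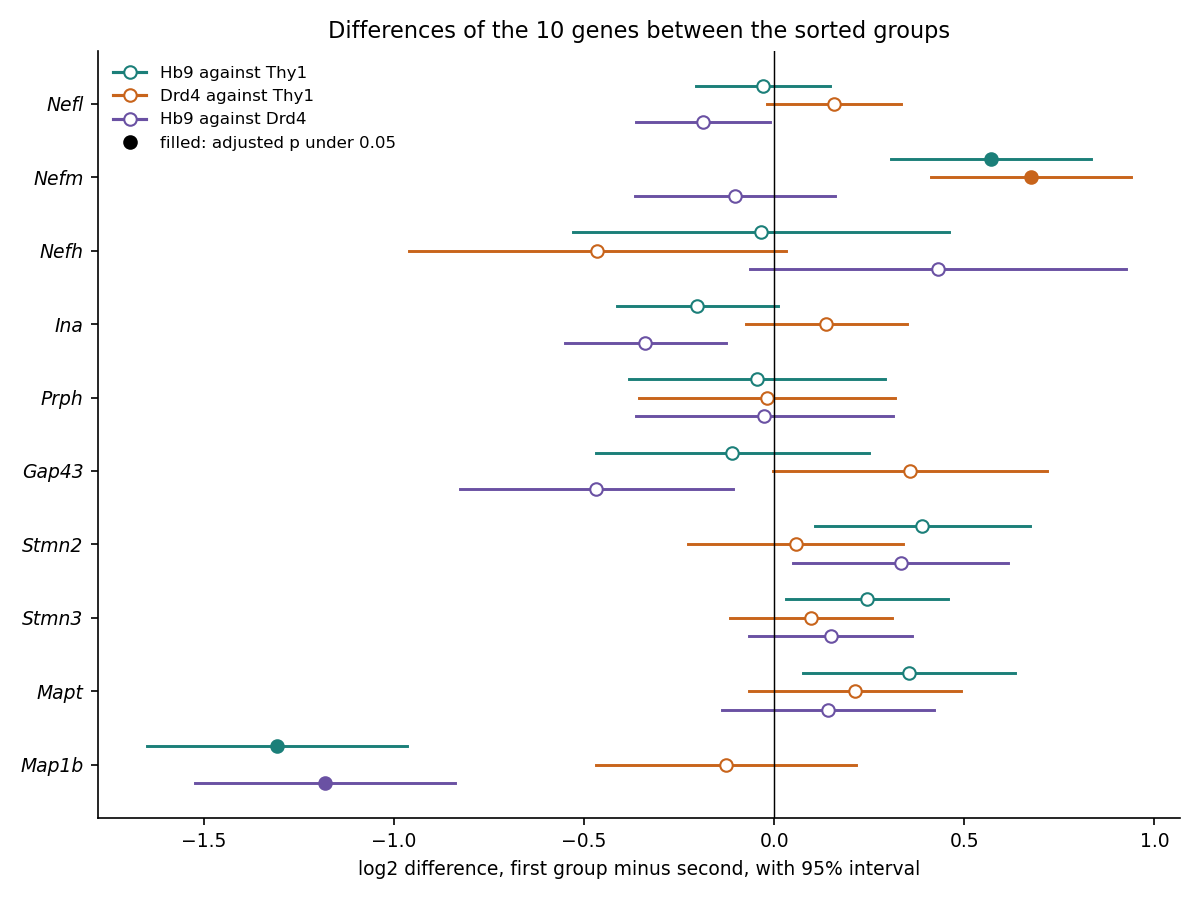
Log2 differences of the 10 genes (x axis), each as the first group minus the second, with 95% intervals from limma; filled points passed at an adjusted p under 0.05. Filled points are Nefm in both comparisons with Thy1, at 0.57 and 0.67, and Map1b in both comparisons of Hb9, at -1.31 and -1.18.

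Gap43 read 10.22 and 9.95 in Hb9 and 10.37 and 10.73 in Drd4, against 10.09 and 10.29 in Thy1. The Drd4 arrays lay above the other 4, and Hb9 and Thy1 overlapped. Drd4 minus Thy1 was 0.36 ± 0.16 (95% interval -0.0021 to 0.72, adjusted p = 0.349) and Hb9 minus Drd4 was -0.47 ± 0.16 (-0.83 to -0.11, adjusted p = 0.133), so neither passed. Both depended on single arrays: Drd4 minus Thy1 was 0.18 without Drd4 replicate 2 and 0.53 without Drd4 replicate 1, and Hb9 minus Drd4 was -0.29 and -0.64 without the same arrays.

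The leading probe sets of Stmn2, Stmn3 and Mapt were highest in Hb9, and none of the 3 passed in any comparison. Stmn2, also known as SCG10, read 12.51 and 12.22 in Hb9 and 11.95 and 12.11 in Drd4, against 11.86 and 12.09 in Thy1. Both Hb9 arrays lay above the other 4, with Hb9 minus Thy1 at 0.39 ± 0.13 (95% interval 0.11 to 0.67, adjusted p = 0.0986). The second Stmn2 probe set gave -0.09 ± 0.13, with overlapping groups, so the probe sets of this gene do not share a direction.

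Stmn3 read 12.93 and 12.71 in Hb9 and 12.67 and 12.67 in Drd4, against 12.51 and 12.64 in Thy1. On this probe set the groups did not overlap, and Hb9 minus Thy1 was 0.24 ± 0.10 (95% interval 0.03 to 0.46, adjusted p = 0.163). The second Stmn3 probe set gave 0.17 ± 0.14 (-0.14 to 0.49), and its groups overlapped in all 3 comparisons. Mapt, the tau gene, read 11.97 and 11.79 in Hb9 and 11.59 and 11.89 in Drd4, against 11.46 and 11.59 in Thy1. Hb9 lay above Thy1 on both arrays and overlapped Drd4. Its Hb9 minus Thy1 difference was 0.35 ± 0.13 (0.07 to 0.63, adjusted p = 0.125), and the other 3 Mapt probe sets gave 0.34 ± 0.18, 0.05 ± 0.17 and 0.48 ± 0.27.

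Map1b, an early microtubule-associated protein of growing axons, had the largest difference of the 10 genes. It read 8.93 and 9.16 in Hb9 and 10.29 and 10.16 in Drd4, against 10.21 and 10.50 in Thy1. Hb9 did not overlap the other groups, and Drd4 overlapped Thy1. The adjusted p was 0.00176 for Hb9 minus Thy1 and 0.00154 for Hb9 minus Drd4 (-1.18 ± 0.15), and Drd4 minus Thy1 was -0.13 ± 0.15 (95% interval -0.47 to 0.21, adjusted p = 0.832). Both calls held in all 16 alternatives, with adjusted p-values from 0.000429 to 0.0168 and from 0.00118 to 0.0201.

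The 3 probe sets of Map1b did not all show this. A second probe set was lower in Hb9 by 1.43 ± 0.15 against Thy1 (adjusted p = 0.000528 in the fit of probe sets) and by 1.39 ± 0.15 against Drd4. It read 8.60 and 8.91 in Hb9 and 10.06 and 10.22 in Drd4, against 10.22 and 10.15 in Thy1. The third was dim, at 6.16 to 6.51 on the 6 arrays, and gave -0.04 ± 0.15 in Hb9 against Thy1, with overlapping groups. The annotation gives all 3 the same accession. Over all members, 1 of 23 probe sets was higher and 2 were lower in Hb9 than in Thy1, beside 7.12% of all probe sets in either direction (2.99% higher and 4.13% lower). In Drd4 against Thy1, 1 was higher and 0 lower, beside 4.43% (1.32% higher and 3.11% lower). In Hb9 against Drd4, 0 were higher and 2 lower, beside 7.21% (3.56% higher and 3.65% lower).

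**Figure D3:**
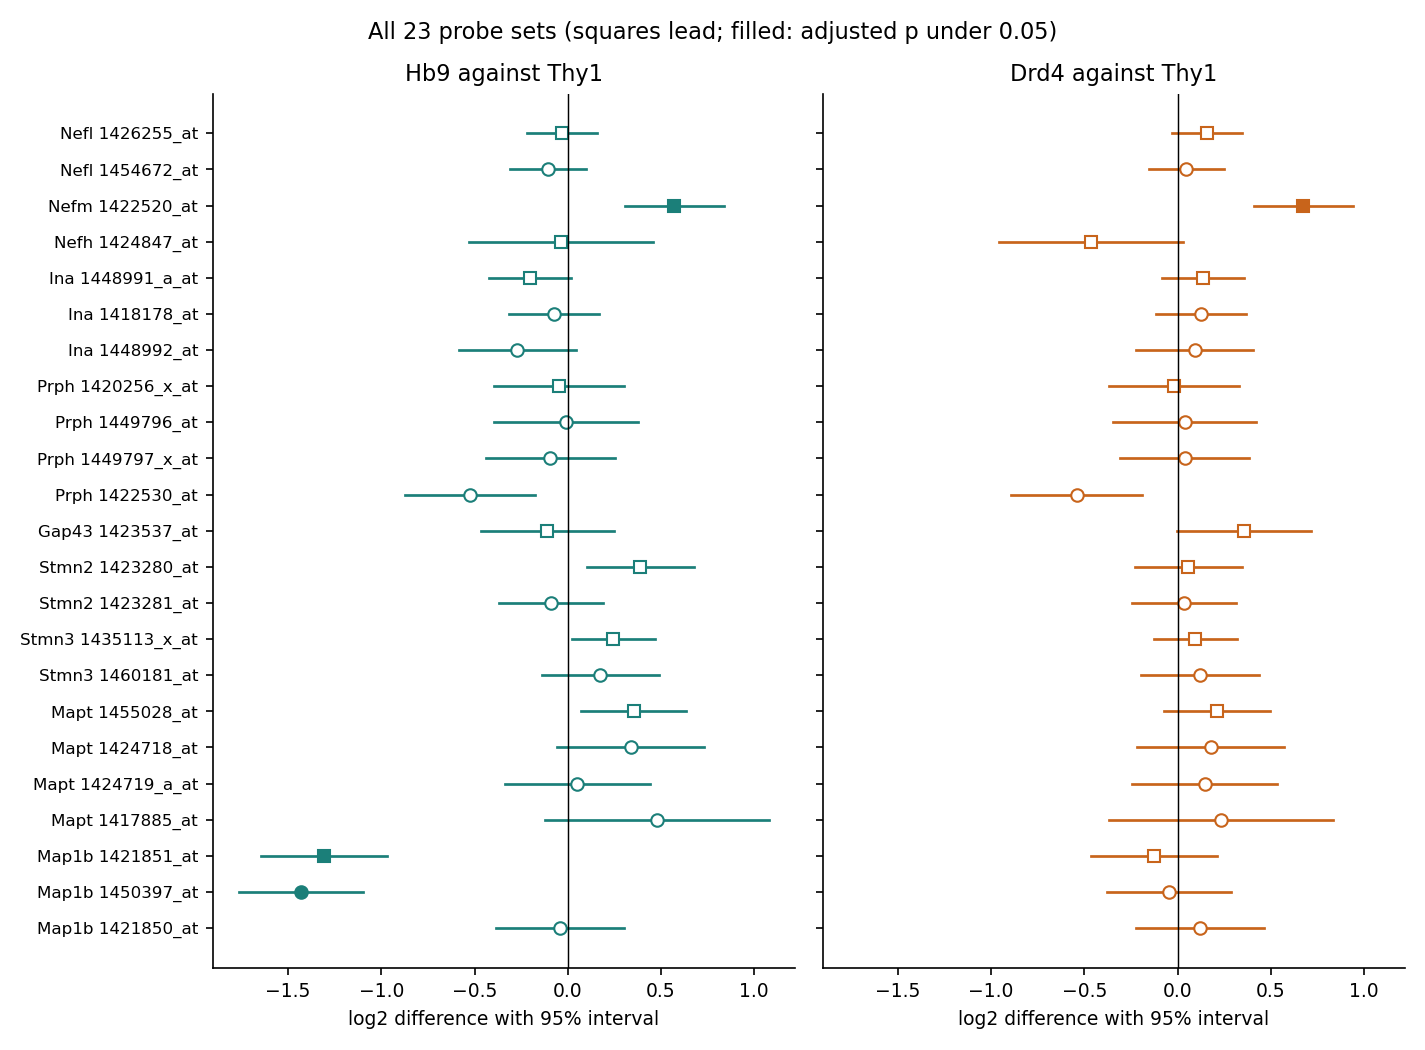
Log2 differences with 95% intervals (x axis) for all 23 probe sets (y axis) in Hb9 against Thy1 (left) and Drd4 against Thy1 (right); squares are leading probe sets, and filled symbols passed at an adjusted p under 0.05 over all probe sets with 1 gene. Of 3 Map1b probe sets, 2 are filled at -1.31 and -1.43 in Hb9 and the third lies at -0.04.

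Some control values for RNA quality set the Hb9 arrays apart, and so moved with Map1b. The log2 difference between 3′ and 5′ control probe sets of Gapdh was 2.22 and 2.33 in Hb9 and 2.15 and 1.94 in Drd4, against 2.03 and 1.99 in Thy1. The same measure for beta-actin was 2.01 and 2.27 in Hb9, against 2.34 and 2.21 in Thy1, and these ranges overlapped. The control for the 5′ part of 18S ribosomal RNA read 1125 and 1071 in Hb9 and 2457 and 3262 in Drd4, against 2866 and 2772 in Thy1. The control for the 3′ part of 18S read 1003 and 903 in Hb9 and 480 and 624 in Drd4, against 732 and 865 in Thy1. The Hb9 arrays thus stood apart for the 5′ part of 18S, where they were lower. For Gapdh and the 3′ part of 18S they lay above all other arrays. There the gap to the nearest other array was smaller than the gap between the Hb9 arrays. For beta-actin they did not stand apart. The part of these differences in the Map1b result was not tested.

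The label of the cells was checked with 9 RGC genes, whose summed intensity was 18532 and 19317 in Hb9 and 18874 and 17130 in Drd4, against 17955 and 17480 in Thy1. Rbpms, a general RGC marker, averaged 10.38 ± 0.01 in Hb9 and 10.58 ± 0.07 in Drd4, against 10.46 ± 0.16 in Thy1, and passed in no comparison. Slc17a6, the vesicular glutamate transporter of these cells, did not pass either, and Pou4f2 was not analysed here. Of the 9 genes 0 passed in Hb9 against Thy1 in limma, with 2 at an unadjusted p under 0.05. Thy1 and Pou4f3 were higher and Isl1 was lower in Drd4 against Thy1, and in Hb9 against Drd4, Isl1 was higher and Pou4f3 lower. Isl1, for a transcription factor of many RGCs, differed by -1.74 ± 0.12 in Drd4 against Thy1 and by 1.93 ± 0.12 in Hb9 against Drd4. Isl1 and Pou4f3 were named after their values were seen. Thy1 itself, the gene of the sort marker, was raised in Drd4 over the Thy1 group by 0.52 ± 0.10 (adjusted p = 0.0149). In Hb9 its difference from the Thy1 group was 0.34 ± 0.10 and did not pass in limma (adjusted p = 0.0826). Microglial markers were lower in both GFP-marked groups in 10 of 10 genes, with sums of 1584 and 1953 in Hb9 and 2891 and 1015 in Drd4, against 11111 and 6428 in Thy1.

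Of 10 endothelial and pericyte markers 3 were lower in Hb9 and 4 in Drd4, with sums of 1965 and 1599 in Hb9 and 1174 and 316 in Drd4, against 7756 and 8694 in Thy1. Pecam1, Cldn5 and Tie1 among them were at or below the background reference on all arrays. Of 7 markers of dividing cells 3 were lower in Hb9 and 6 in Drd4, with sums of 338 and 323 in Hb9 and 270 and 247 in Drd4, against 468 and 756 in Thy1. Of 6 horizontal cell markers 1 was lower in Hb9 and 3 in Drd4, with sums of 899 and 657 in Hb9 and 225 and 295 in Drd4, against 574 and 613 in Thy1. Of 9 amacrine cell markers 1 was higher in each line, with sums of 2131 and 1879 in Hb9 and 2024 and 2279 in Drd4, against 1291 and 1580 in Thy1. Tfap2b, Gad1, Slc18a3 and Ptf1a among these were at or below the background reference on all arrays. The median log2 difference of the amacrine markers was -0.05 in Hb9 and -0.07 in Drd4 against Thy1. The medians of all genes were 0.04 and 0.02. Nefm was higher where microglial, vascular and dividing cell sums were lower and amacrine sums, but not the amacrine median, were higher. The part of these markers in the Nefm result was not tested. In these sorted pools, a smaller share of cells of a type and less RNA per cell cannot be told apart.

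**Figure D4:**
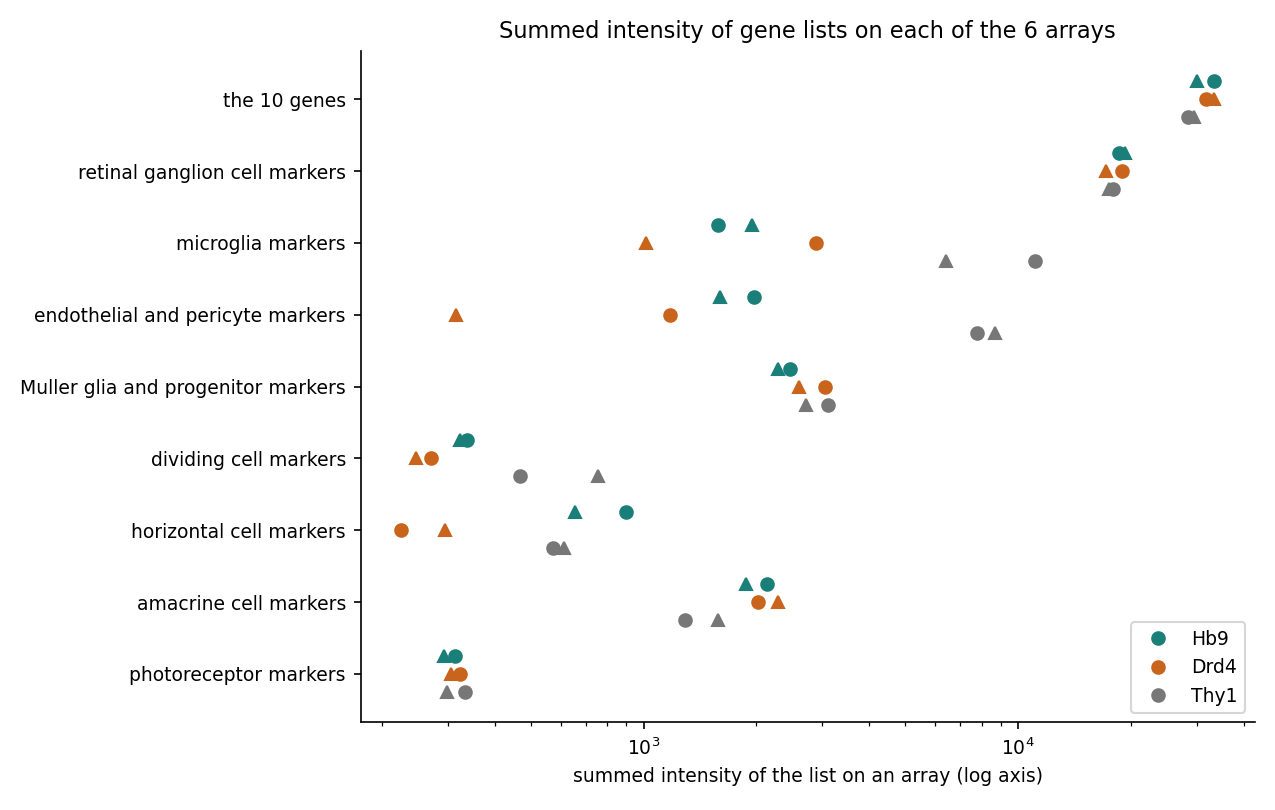
Summed intensity (x axis, log scale) of the 10 genes and of 8 marker lists (y axis) on each array of the Hb9, Drd4 and Thy1 groups, with circles for replicate 1 and triangles for replicate 2. Microglial and vascular sums are higher on both Thy1 arrays than on the other 4, while the RGC sums lie between 17130 and 19317.

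The rest of the axonal cytoskeleton was followed through 7 lists with 115 measured genes. In Hb9 against Thy1, 4 were higher and 4 lower (6.96%, beside 6.71% of all genes). In Drd4 against Thy1, 0 were higher and 1 lower (0.87%, beside 5.47%), and in Hb9 against Drd4, 3 were higher and 5 lower (6.96%, beside 6.12%). The median log2 differences of these genes were 0.12, 0.11 and 0.03 in that order.

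Of 10 other intermediate filament genes, Vim, for vimentin, fell in both lines against Thy1, with log2 differences of -1.73 ± 0.19 in Hb9 (adjusted p = 0.00137) and -2.00 ± 0.19 in Drd4 (0.000218). Vimentin is also a protein of glia, vessels and microglia, and Vim was lower where the microglial and vascular sums were lower. The Muller glia and progenitor sums were 2461 and 2283 in Hb9 and 3046 and 2602 in Drd4, against 3105 and 2708 in Thy1. Drd4 and Thy1 thus overlapped for that list. The part of these markers in the Vim result was not tested. Synm, for synemin, was higher in Hb9 than in Drd4 by 1.01 ± 0.14 (adjusted p = 0.00260). None of these 10 genes passed as higher in a comparison with Thy1.

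Of 22 other stathmins and microtubule-associated proteins, Map9 rose in Hb9 against Thy1 (0.60 ± 0.15) and 0 passed in Drd4 against Thy1, also at an unadjusted p under 0.05 in limma. Between the lines, Map9 was higher in Hb9 by 0.59 ± 0.15. So was Map2, for a dendritic microtubule-associated protein, by 0.50 ± 0.13; it was named after its value was seen. Dcx, for doublecortin, a protein of young neurons, was lower in Hb9 than in Drd4 (-0.60 ± 0.13), and Map4 was lower too (-0.65 ± 0.15). Of 12 tubulin genes, Tuba4a rose in Hb9 (0.57 ± 0.14), and the tubulin median was 0.22 in Hb9 and -0.02 in Drd4 against Thy1.

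Of 21 axonal motor and adaptor genes, Kif3b (-0.74 ± 0.17) and Kif5b (-0.72 ± 0.15), which encode kinesin motor subunits, fell in Hb9 against Thy1 and were also lower than in Drd4. Of 20 growth cone and actin-linked genes, Dpysl4 (0.86 ± 0.19), for a collapsin response mediator protein, and Marcksl1 (0.55 ± 0.14) rose in Hb9 against Thy1. In Drd4 against Thy1 0 of them passed in limma, with 2 at an unadjusted p under 0.05. Of 13 spectrin, ankyrin and plakin genes 0 passed in any of the 3 comparisons in limma, and 1, 0 and 2 had an unadjusted p under 0.05 in Hb9 against Thy1, Drd4 against Thy1 and Hb9 against Drd4. Of 17 kinases and turnover factors of neurofilaments and tau, Ppp2r2c, for a regulatory subunit of protein phosphatase 2A, was lower in Hb9 against Thy1 (-0.74 ± 0.18) and against Drd4 (-1.01 ± 0.18).

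**Figure D5:**
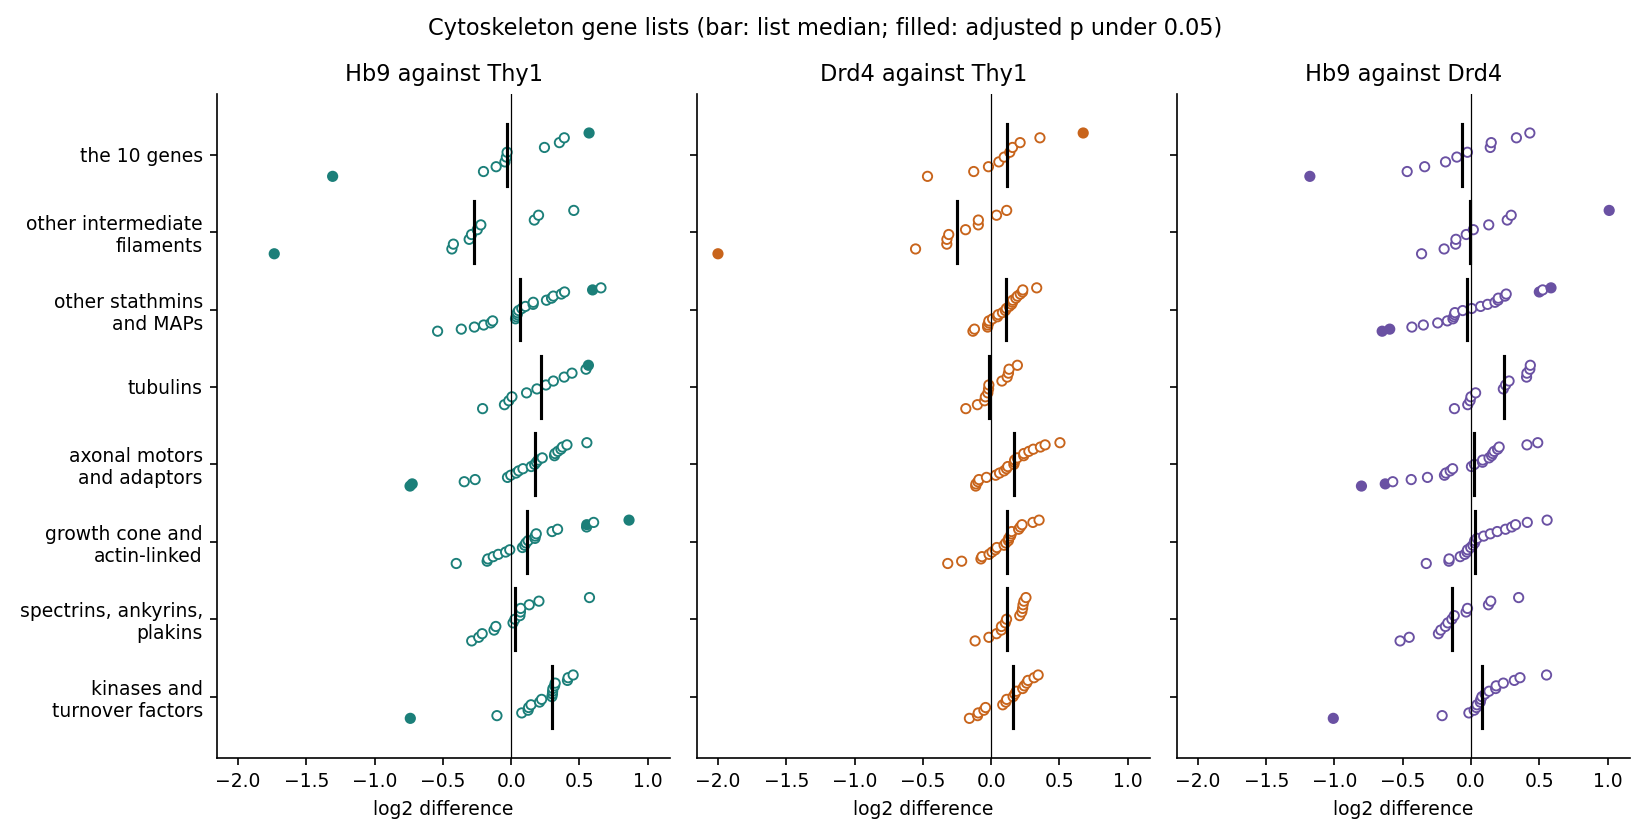
Log2 differences (x axis) of each measured gene in the 10-gene list and 7 further cytoskeleton lists (y axis) for the 3 comparisons, with black bars at list medians and filled points at an adjusted p under 0.05. In Drd4 against Thy1 the filled points are Nefm and Vim.

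The genes whose profiles over the 6 arrays lay closest to those of Nefm and Map1b, by Euclidean distance after centring each gene on its mean, were named as a description. For Nefm they were Syndig1l, Tspoap1 and Bid, at distances of 0.16, 0.17 and 0.20 log2 units, where the profile of Nefm itself has a length of 0.75. Syndig1l differed from Thy1 by 0.66 in Hb9 and by 0.65 in Drd4, Tspoap1 by 0.57 and 0.70, and Bid by 0.42 and 0.57. Bid was dim, and on Thy1 replicate 2 it read 5.05, below the background reference of that array at 5.12. For Map1b they were Ppp2r3a, Zfp398 and Ptp4a2, at 0.34, 0.38 and 0.38 with a length of 1.47. Ppp2r3a differed from Thy1 by -1.15 in Hb9 and by 0.20 in Drd4, Zfp398 by -1.15 and 0.10, and Ptp4a2 by -1.35 and -0.27. The genes near Nefm and Map1b were picked for their likeness, so their differences follow from that choice.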

How the data were processed

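RNA of sorted mouse RGCs was amplified in 2 rounds, labelled with biotin and hybridised to Affymetrix arrays, per the labels' protocols. The authors deposited 1 table of probe set intensities on a linear scale for 45101 probe sets on 6 arrays. How the intensities were background-corrected, summarised and normalised is not stated in the material at hand. Of these probe sets, 64 are controls, 34945 have 1 gene, 932 several and 9160 none in the platform annotation, and 34741 were matched to RefSeq by Entrez identifier, with 0 symbols changed. No value was at or below 0, and log2 was taken without further normalisation.

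The leading probe set of each of 18193 genes entered limma 3.58.1 in R 4.3.3, with a mean for each of 3 groups, 3 residual and 6.98 prior degrees of freedom and an intensity trend. A second fit used all probe sets with 1 gene. Tests were two-sided, with Benjamini-Hochberg adjustment over all genes or probe sets and calls made at 0.05. Precision is limited by the number of arrays, and the median standard error of a difference was 0.15 over all genes. On simulated data of 18193 genes with 200 changed in Hb9 against Thy1, 20.5% of log2 changes of 0.5, 95.1% of changes of 1 and 100% of changes of 2 were recovered. The background reference of an array is its highest of 27 bacterial control probe sets, and 68.2% to 78.9% of genes lay above it. Array medians ran from 45.5 to 47.7. Across genes, which are not independent replicates, replicate arrays correlated at 0.988 to 0.992 and arrays of different groups at 0.963 to 0.981. P-values rest on the spread between these arrays, which limma moderates for each gene toward a trend over all genes.

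The 10 genes and the lists were chosen with earlier results of these data known. Named genes are all 10 members, up to 3 passing genes of each cytoskeleton list per comparison, marker list sums with Thy1, Rbpms and Slc17a6, and the 3 nearest profiles of each passing member. Alternatives were quantile normalisation, median centring, the mean of all probe sets, dim genes left out, moderation without trend or with robust settings, array weights, a replicate block, an offset of 16, only the compared groups, and each array left out. Those for the counts of member probe sets were added after the data were seen.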

Additional observations from a re-analysis of the deposited data

Results flagged for a closer look

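Map1b differed between the GFP-marked groups themselves, with a log2 value of -1.18 ± 0.15 for Hb9 minus Drd4 (adjusted p = 0.00154 by limma), with both Hb9 arrays below both Drd4 arrays. It was the only one of the 10 genes for which this test of the difference between the lines passed.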

How the results depend on the processing

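Of 480 values of the 10 genes in 3 comparisons under 16 alternatives, 458 kept their direction and their side of the threshold, 3 lost a call, 1 gained one and 18 changed sign. The sign changes were all of differences that had not passed. Some alternatives change only the spread or the set of tests, or leave out an array of the group not compared. Those leave a difference as it was, so its sign could not change under them. With median centring Nefl and Nefh became 0.012 and 0.0066 in Hb9 against Thy1 and Prph became 0.022 in Drd4 against Thy1, and quantile normalisation gave 0.0072 for Prph there. Leaving out single arrays gave -0.089 to 0.030 for Nefl, -0.37 to 0.30 for Nefh, -0.18 to 0.094 for Prph and -0.25 to 0.027 for Gap43 in Hb9 against Thy1. In Drd4 against Thy1 it gave -0.081 to 0.043 for Prph, -0.062 to 0.18 for Stmn2 and -0.27 to 0.018 for Map1b, and in Hb9 against Drd4 -0.22 to 0.013 for Nefm, -0.17 to 0.11 for Prph and -0.0062 to 0.29 for Mapt.

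The 3 lost calls were of Nefm in Hb9, where single arrays left out gave 0.45 to 0.69. Without Hb9 replicate 1 or either Thy1 replicate 1 of 10 members passed there in place of 2, so the count ran from 1 to 2. In Hb9 against Drd4 2 members passed with dim genes left out. Of the member probe sets, 0 to 1 passed in Drd4 against Thy1 with single arrays left out, and the one lost without Drd4 replicate 2 was that of Nefm. Single arrays also moved uncalled differences of Hb9 minus Thy1, from 0.24 to 0.54 for Stmn2 and from 0.14 to 0.35 for Stmn3. Over all genes 315 to 1633 passed in Hb9 against Thy1, beside 1220 with all arrays, and 411 to 1244 in Hb9 against Drd4, beside 1113. The share of passing genes that were higher in Hb9 than in Thy1 ran from 30.5% to 60.1% with single arrays left out, beside 52.5% with all. It was 44% with quantile normalisation and 62.3% with median centring, so the balance of higher and lower genes depends on scaling. The low counts came without Hb9 replicate 1 (315 and 411), without Hb9 replicate 2 (441 and 532), without Thy1 replicate 1 (380 in Hb9 against Thy1) and without Drd4 replicate 1 (689 in Hb9 against Drd4). The deviations of same-numbered arrays from their group means correlated at -0.19 for Hb9 and Thy1, 0.37 for Drd4 and Thy1 and -0.28 for Hb9 and Drd4, so the numbers were not taken to pair arrays. With a replicate block 1156, 985 and 1030 genes passed in Hb9 against Thy1, Drd4 against Thy1 and Hb9 against Drd4, and no call of a member changed. With 2 arrays in a group, precision is limited. In the simulation with 200 changed genes, 20.5% of log2 changes of 0.5 were recovered. In the real Hb9 against Thy1 comparison 1220 genes passed. The median standard error of the members was 0.13, beside 0.15 over all genes. The simulated share therefore does not tell how many changes of that size these data would detect among the members.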

Other observations

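Map1b and Cartpt are neighbouring genes on the mouse genome. Cartpt, a neuropeptide gene used as a marker of direction-selective RGCs, was singled out after its values were seen. It was higher than in Thy1 in both lines, by 1.99 ± 0.27 on the log2 scale in Hb9 (adjusted p = 0.00339 by limma) and by 2.04 ± 0.27 in Drd4 (0.00159), while Map1b was lower in Hb9 and did not pass in Drd4. The SD of Cartpt over the arrays of a group was 0.73 in Drd4, against 0.09 in Hb9 and 0.08 in Thy1. Mrps27, the neighbour of Map1b on its other side, gave -0.01 ± 0.14 in Hb9 and -0.17 ± 0.14 in Drd4 against Thy1.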
